A study of Saccharomyces cerevisiae with 4 samples.

Results

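The comparison set a budding yeast strain (Saccharomyces cerevisiae) that lacks ADA1 (standard name HFI1) against one that lacks GCN5, across all 5667 genes and unnamed probe sets of the array. Each deletion had been made with a KanMX cassette in the haploid strain BY4742 (mating type alpha), and was measured on 1 array. Wild-type BY4742, on 2 arrays (replicates 1 and 2), served as the reference for both. The rule took all 4 of the 4 arrays in the series: the deletion arrays were compared directly and as a difference of differences, the ada1 deletion minus wild-type replicate 1, less the gcn5 deletion minus wild-type replicate 2. All cultures grew in YPD, a rich glucose medium, to exponential phase, and total RNA was extracted.

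SAGA is a coactivator complex that is recruited to promoters by activators. Its core, which includes Hfi1/Ada1, Spt7, Spt20 and several TBP-associated factors, holds the complex together. Its other modules acetylate histones (Gcn5 with Ada2, Ngg1 and Sgf29), bind the TATA-binding protein (Spt3 and Spt8) or remove ubiquitin from histone H2B. Loss of Ada1 is known to disrupt the whole complex, whereas loss of Gcn5 removes the acetyltransferase and leaves the rest assembled. Gcn5 also acts in a second complex, ADA. The direct comparison therefore asks at which genes loss of the core subunit and loss of the enzyme gave different transcript levels.

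The values were MAS5 signals, a linear intensity per probe set. Median signals were 413 in wild-type replicate 1 and 457 in the ada1 deletion strain. They were 494 in wild-type replicate 2 and 525 in the gcn5 deletion strain. Over all tested genes, wild-type replicate 1 minus replicate 2 had a median of -0.18 on the log2 scale. The top of the range split the arrays by the same pairs, in the other direction. The highest signals were 21989 in the ada1 deletion strain and 23746 in wild-type replicate 1, against 12244 in the gcn5 deletion strain and 11804 in wild-type replicate 2. Among the 334 tested genes with a mean signal of at least 5000, the ada1 array lay above the gcn5 array by a median of 0.46 on the log2 scale and wild-type replicate 1 lay above replicate 2 by 0.57. A direct difference thus carries a difference between these array pairs, which the difference of differences takes out, leaving a median of -0.16 for the same genes. The labels give no batch that would tell scan, labelling and culture apart as its source.

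A few genes, picked out after their values were seen, split the arrays by pair far more strongly. AAD4, which encodes a putative aryl-alcohol dehydrogenase, gave 64.6 in the ada1 deletion strain and 29.7 in wild-type replicate 1, but 802 without GCN5 and 661 in replicate 2. DOG2, a phosphatase gene for 2-deoxyglucose-6-phosphate, gave 124 and 66.6 against 1362 and 1040.2 in the same order. PAU23, of the seripauperin family, ran the other way, with 1810.3 and 2713 against 189 and 179.8. In these genes each deletion array sat near one wild-type array and away from the other. In all, 49 tested genes differed by 2-fold or more between the wild-type arrays, and 17 of them also did so in the same direction between the deletion arrays. Of those 17, 13 passed the test of the direct difference, and only 3 (PHO89, YAR009C and IMD2) were also 2-fold or more apart in the same direction in the difference of differences. Among the 13, TPO2 (-1.32), PAU17 (1.24) and an unnamed probe set (-2.27) were 2-fold or more apart there with the opposite sign.

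**Figure D1:**
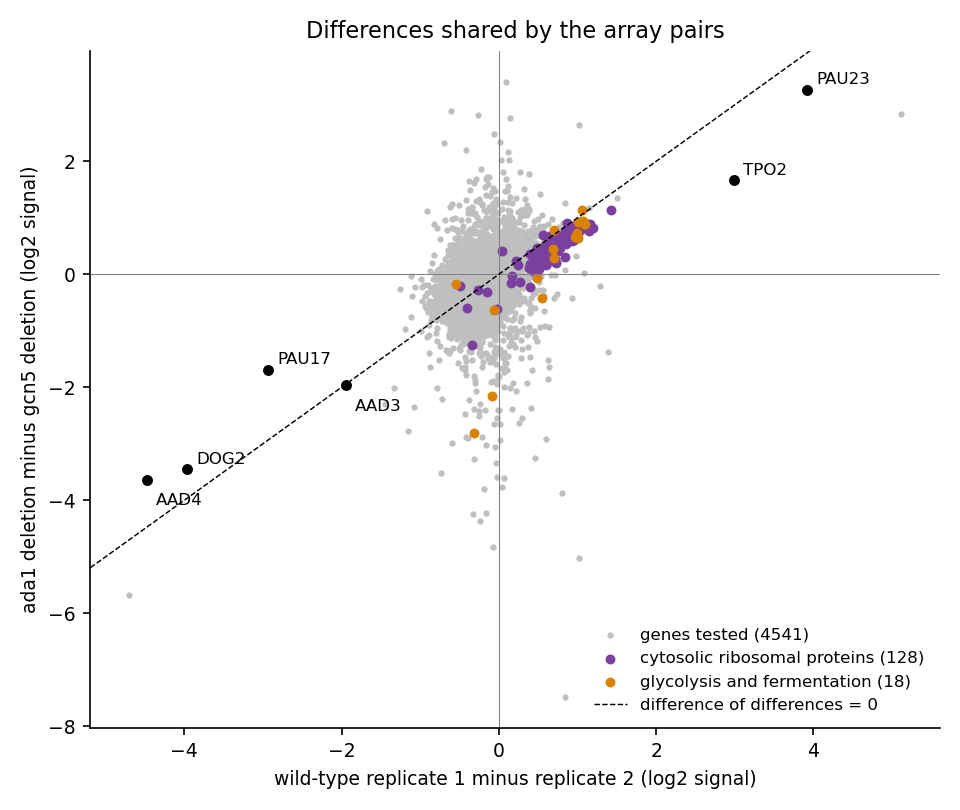
Each point is a tested gene, with the wild-type replicate 1 minus replicate 2 difference on the x axis and the ada1 minus gcn5 deletion difference on the y axis, both in log2 signal. Cytosolic ribosomal protein genes and most glycolysis genes lie along the dashed line where the difference of differences is 0, as does AAD3 (-0.02). DOG2 (0.51), AAD4 (0.84) and PAU17 (1.24) lie above that line, and PAU23 (-0.65) and TPO2 (-1.32) lie below it.

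The deleted genes matched the labels. HFI1 gave a signal of 6.70 in its own deletion strain and 372 in the gcn5 deletion strain, with 246 and 279.8 in wild type. GCN5 gave 3.28 in its deletion strain and 333 in the ada1 deletion strain, with 309 and 385 in wild type. The nearest flanking genes on the array did not pass the test between the strains: BBP1 and VIK1 beside HFI1 differed by -0.70 ± 0.39 (SE) and -0.53 ± 0.39, and NOP19 and PUP2 beside GCN5 by -0.39 ± 0.46 and -0.47 ± 0.27 on the log2 scale. The 7 genes specific to mating type a gave at most 110.8 on any array, below the background level of 166, and their summed signal was 227 to 424. The 4 alpha-specific genes summed to 3803 without ADA1 and 6025 without GCN5, against 25491 and 32273 in wild type. Of 16 tested genes of other SAGA subunits, none was called (limma), and 1, TAF12, had an unadjusted p under 0.05. Their direct differences ran from -0.76 for TAF12, which was 0.35 in the difference of differences, to 0.35 for UBP8.

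Genes were called different at an adjusted p under 0.05 in limma (Benjamini-Hochberg over 4541 genes), and a lower or higher gene below means in the ada1 relative to the gcn5 deletion strain. Neither deletion strain had a replicate, so the spread came from the wild-type pair alone and each deletion array was assumed to vary as these do. The prior degrees of freedom were infinite, so each gene was given the trend's spread for its level, and p-values understate the error of genes that vary more than that. The standard error of a difference was 0.40 at the median and 0.77 at the median of the genes above 5000, where 1 gene was called.

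Of 4541 genes, 284 were called, or 6.25 percent. The higher genes numbered 91 (2.0 percent) and the lower genes 193 (4.25 percent), and 678 genes had an unadjusted p under 0.05. This split depended on scaling: 32 percent of calls were higher as deposited, 50.1 percent after quantile normalization (289 higher and 288 lower) and 53.7 percent after scaling to a common median (303 and 261). Those settings moved the median difference of all genes from -0.11 to 0.01 and 0.09. Genes that were called and also 2-fold or more apart in the same direction both directly and in the difference of differences numbered 187 (4.12 percent), 67 higher (1.48 percent) and 120 lower (2.64 percent). Of these 187 genes, 186 were also called in the same direction after quantile normalization, 178 after scaling to a common median, 173 without the filter, 153 with a single variance prior and 109 with signals below background raised to it. Raising signals also took the prior degrees of freedom from infinite to 8.44 for all genes. Genes with no signal below background also lost calls there at an unchanged difference, among them YIH1, SRD1, CTS1, MCM7, MET3, MET5 and UTP6. On both deletion arrays 5 of the 187 (FAR1, FUS1, PHO3, SPL2 and a probe set with no gene name) lay below background, and they were tested only through their wild-type signals. Some others passed the filter on mean signal only through the deletion array where they were high. Among these were ARG3 and GSY1, through the gcn5 array, and SUL2, HUG1, THI13 and PDR11, through the ada1 array. The difference of differences used the same deletion arrays, so it limits the size of an effect and is no second test.

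The effects of the deletions, each taken from the wild-type array with a like signal range, shared no array. Across the 4541 genes, which are not independent replicates, they correlated at Pearson r = 0.46 and Spearman rho = 0.39. With each deletion array set against the other wild-type array, r was 0.13 and rho -0.02, a pairing that enters the difference between array pairs with opposite signs. The ada1 deletion array was 2-fold or more above its wild-type array in 120 genes and below it in 200, against 49 and 90 genes for the gcn5 deletion array.

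**Figure D2:**
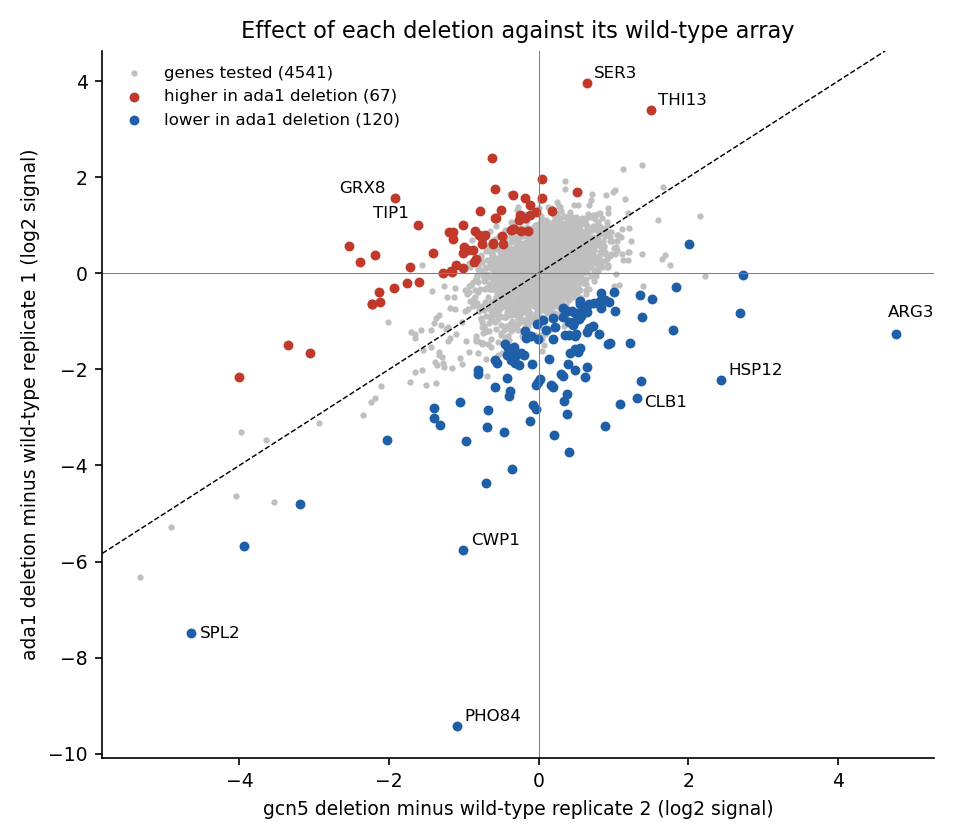
Each point is a tested gene, with the log2 difference of the gcn5 deletion from wild-type replicate 2 on the x axis and of the ada1 deletion from wild-type replicate 1 on the y axis; coloured points are the 67 higher and 120 lower genes that were called and 2-fold or more apart both ways. PHO84 and CWP1 lie far below the dashed line of equal effect, with gcn5 effects of -1.09 and -1.01, while HSP12 and CLB1 lie in the quadrant of opposite effects.

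The lower genes were mostly those where the ada1 array left the wild-type range. Of the 120, 71 were 2-fold or more below both wild-type arrays in the ada1 deletion strain and not 2-fold above or below both in the gcn5 deletion strain. In 9 the gcn5 array alone stood 2-fold or more above both wild-type arrays, in 6 the strains stood on opposite sides, and in 8 both strains were below with the ada1 strain further down. The remaining 26 were not 2-fold from both wild-type arrays in either strain. Among the 67 higher genes the ada1 array alone stood above both wild-type arrays in 14 and the gcn5 array alone stood below both in 20, 28 were within in both strains, 3 were below in both and TIP1 and THI13 made up the other classes. These classes describe positions and carry no test beyond the direct difference.

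PHO84 came first in the order of log2 differences, an order that rests in part on signals below background. Its product is the high-affinity phosphate transporter of the plasma membrane. The signal was 18.4 without ADA1 and 3299 without GCN5, with 12610.3 and 7020.3 in wild-type replicates 1 and 2. The ada1 array lay below background, at least 19.9-fold under the gcn5 array, which itself lay below both wild-type arrays (limma adjusted p = 4.00e-175, and 1.42e-08 with quantile normalization). ARG3, which encodes ornithine carbamoyltransferase of arginine synthesis, gave 71.2 without ADA1 and 2310.1 without GCN5, with 171 and 84.6 in wild type. Here the gcn5 array was the one apart, and the ada1 array was at least 13.9-fold lower (adjusted p = 2.00e-28). ARG3 passed the filter on mean signal only through that gcn5 signal, so its being tested depended on the difference itself.

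Cell wall, transport and cell cycle genes came next. CWP1, a cell wall mannoprotein, gave 68.9 against 1948, at least 11.8-fold lower, with 3738 and 3920.3 in wild type, so that both deletion arrays were below wild type and the ada1 array much further. QDR2, a multidrug transporter of the plasma membrane, gave 38.6 against 791 and was at least 4.77-fold lower. The gcn5 array was near wild type there (509 and 599). RPI1, a transcriptional regulator, gave 34.3 against 641, at least 3.87-fold lower, with 309.5 and 348 in wild type. CLB1, a B-type cyclin that drives mitosis with Cdc28, gave 104 against 1966, at least 11.9-fold lower. Wild type gave 629 and 790.7 for CLB1, between the strains. The small stress protein gene HSP12 also had its wild-type signals, 586 and 337, between the strains, at 125 without ADA1 and 1820.5 without GCN5 (at least 11.0-fold lower).

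The other leading lower genes had roles in stress, nitrogen metabolism and the cell surface. YGR035C, of unknown function, gave 84.3 against 1143, with 557 and 541 in wild type. PCL5, a cyclin of the Pho85 kinase that targets Gcn4 for degradation, gave 175 against 2425, with 827 and 943 in wild type (log2 difference -3.79 ± 0.33 SE, adjusted p = 4.93e-28). Both had the gcn5 array above and the ada1 array below the wild-type arrays. DDR48, a stress protein gene, gave 125 against 1516, with 2600.1 and 2478 in wild type. The aromatic aminotransferase gene ARO9 gave 54.8 against 662 (568 and 575 in wild type), and PNS1, a membrane protein gene, gave 76.7 against 773 (580.0 and 595 in wild type). In both, the gcn5 array was close to the wild-type arrays. DDR2, another stress gene, gave 30.9 against 294 (518 and 377 in wild type), and the polyamine transporter gene TPO4 gave 46.9 against 388 (296 and 307 in wild type). TIR3, a mannoprotein gene of the wall under low oxygen, gave 297 against 2873, with 671 and 832 in wild type. Adjusted p-values of the 15 leading lower genes reached 8.14e-11 in limma, or 0.000153 once the arrays were quantile normalized. With signals below background raised to it, DDR2 (adjusted p = 0.341, the alternatives giving 2.81e-26 to 0.341) and TPO4 (0.0633, the alternatives giving 6.70e-23 to 0.0633) lost their calls.

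**Figure D3:**
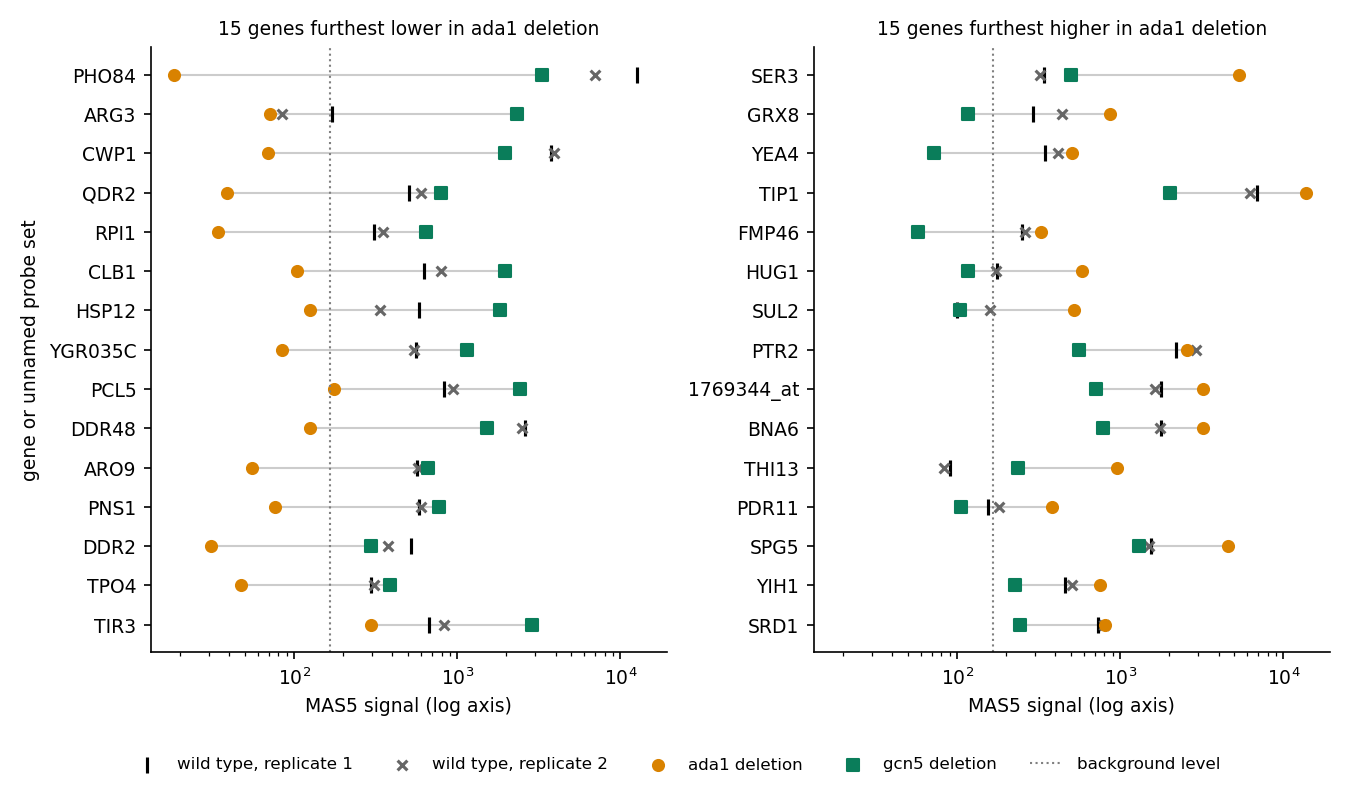
MAS5 signal on a log axis for the 15 genes furthest lower (left) and furthest higher (right) in the ada1 than in the gcn5 deletion strain, 1 array per strain and both wild-type replicates, with the background level of 166 dotted. On the left most ada1 signals lie below background, with the gcn5 signals above it and below both wild-type arrays at PHO84, CWP1, DDR48 and DDR2, and on the right several gcn5 signals lie below background while SER3, THI13, HUG1 and SPG5 stand out by their ada1 signal.

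SER3 led the genes that were higher. It encodes 3-phosphoglycerate dehydrogenase, the enzyme of the first step of serine synthesis. Its signal was 5332 without ADA1 and 501 without GCN5, with 342 and 321 in wild type (log2 difference 3.41 ± 0.33 SE, limma adjusted p = 8.93e-22, and 1.03e-05 with quantile normalization). Only the ada1 array stood 2-fold or more from both wild-type arrays. Its paralog SER33 gave 1213 and 1231, without a call. HUG1, an inhibitor of ribonucleotide reductase in the DNA damage response, gave 585 against 116, with 175 and 174 in wild type. The sulfate permease gene SUL2 gave 519 against 104, with 99.1 and 160.1 in wild type. The bounds against background were at least 3.53-fold for HUG1 and at least 3.13-fold for SUL2. SPG5, which acts on the proteasome in stationary phase, gave 4585 against 1310.0, with 1545 and 1491 in wild type. THI13 is a thiamine synthesis gene read by a probe set that can detect its near-copies, and it gave 956 against 235, with 90.7 and 83.0 in wild type. Both deletion arrays were above wild type at THI13. PDR11, an ABC transporter gene of sterol uptake, gave 384 against 106, with 156 and 182 in wild type, and was at least 2.31-fold higher. HUG1, SUL2, THI13 and PDR11 passed the filter on mean signal only through their ada1 signals. SUL2 lay below background on every other array.

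In several other leading genes it was the gcn5 array that lay below wild type. GRX8, a glutaredoxin gene, gave 862 without ADA1 and 117 without GCN5, at least 5.20-fold higher, with 291 and 442 in wild type. YEA4, a transporter gene of the endoplasmic reticulum for a chitin precursor, gave 509 against 71.8, at least 3.07-fold higher, with 345 and 415 in wild type. FMP46, a mitochondrial protein gene, gave 325 against 57.8, at least 1.96-fold higher, with 251 and 262 in wild type. In YEA4 and FMP46 the ada1 array was within 2-fold of both wild-type arrays. PTR2, which imports di- and tripeptides, gave 2561 against 558, with 2189 and 2925 in wild type (log2 difference 2.20 ± 0.25 SE, adjusted p = 8.46e-16). BNA6, an enzyme of NAD synthesis from tryptophan, gave 3202 against 788, with 1778.5 and 1740.1 in wild type (2.02 ± 0.25 SE, adjusted p = 1.73e-13). A probe set with no gene name gave 3197 against 711, with 1769.6 and 1634 in wild type. YIH1, an inhibitor of Gcn2 activation, gave 752 against 227 (456 and 504 in wild type). SRD1, which acts in ribosomal RNA processing, gave 802 against 244 (733 and 799 in wild type). TIP1, a mannoprotein gene of the cell wall, gave 13809 against 2027, with 6861 and 6219 in wild type, the ada1 array above and the gcn5 array below both. Adjusted p-values of the 15 leading higher genes reached 0.00295 in limma, or 0.000339 once the arrays were quantile normalized. With signals raised to background, YEA4 (adjusted p = 0.0577, from 2.07e-26 over the alternatives), FMP46 (0.0750, from 2.18e-20), YIH1 (0.0780, from 4.99e-12) and SRD1 (0.0572, from 5.88e-13) lost their calls. YIH1 and SRD1 had no signal below background, and their differences were unchanged.

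The gene lists below are read against the median of all tested genes, which was -0.11 for the direct difference and 0.06 for the difference of differences, and against the 2.0 and 4.25 percent of genes called higher and lower. Daughter-specific and cell separation genes, many of which act to free the daughter cell after division, were lower. Of 14 tested, 11 were called lower and none higher, and all 14 direct differences were below 0, with a median of -1.50 (-1.36 in the difference of differences and -1.40 after quantile normalization). BUD9, a landmark of bud-site selection, gave 54.3 without ADA1 and 399 without GCN5, with 361 and 421 in wild type. DSE3, a daughter-specific gene, gave 255 against 873, with 844 and 1128 in wild type. The chitinase gene CTS1 gave 1782 against 5583, with 8932 and 5729.6 in wild type. In each the gcn5 array was within 2-fold of at least one wild-type array and the ada1 array was far below. AMN1, also of this list, gave 713 against 2234, and the glucanase gene DSE4 gave 938 against 2822. The list median against the own wild-type array was -1.63 without ADA1 and -0.15 without GCN5.

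Other cell cycle lists had fewer calls. CLB1 was the only one of 16 G2-M genes called, and the list median of -0.74 became -0.27 in the difference of differences. Of 11 M-G1 genes, the replication licensing genes CDC6 and MCM7 were called lower and none higher, with a median of -0.59. CDC6 gave 136 against 376 (268 and 363 in wild type) and MCM7 gave 269 against 643 (575 and 725). MCM7 was -0.92 in the difference of differences, short of 2-fold. BUD9, CTS1, CDC6 and MCM7 lost their calls with signals raised to background, CTS1 also after scaling to a common median and MCM7 also with a single variance prior. No signal of CTS1 or MCM7 lay below background, and their differences there were unchanged (-1.65 and -1.26).

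General stress genes respond to many insults through Msn2 and Msn4. Of 21 tested, 9 were called lower and none higher, and 15 differences were below 0 and 6 above, with a median of -1.12 (-1.22 in the difference of differences, -0.83 with dim signals at background). Beside HSP12, DDR48 and DDR2, PNC1, a nicotinamidase gene, gave 348 against 1816, with 1794 and 1598 in wild type. HOR7, a small protein of the osmotic response, gave 1649 against 5956, with 8238 and 5324 in wild type, and its call ended with arrays scaled to equal medians. After quantile normalization 12 were called lower and 2 higher, the chaperone gene SSE2 (669.7 against 267) and the aldehyde dehydrogenase gene ALD2 (651 against 358). The list median against the own wild-type array was -0.66 without ADA1 and 0.30 without GCN5. Of 13 genes of trehalose and glycogen, the storage carbohydrates, 3 were called lower and none higher, with a median of -0.59. TSL1, a regulatory subunit of trehalose synthase, gave 249.7 against 1569.6, with 683 and 674 in wild type between them. The glycogen synthase genes GSY2 and GSY1 gave 257 against 673 and 105 against 257, and both lost their calls with signals raised to background, GSY1 also without the filter on dim probe sets.

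Among glycerol genes, GPD1 and GPP2 were lower. GPD1, glycerol-3-phosphate dehydrogenase, gave 282 against 1638, with 2781 and 2259.9 in wild type (log2 difference -2.54 ± 0.25 SE, adjusted p = 1.26e-20, limma). GPP2, the phosphatase that follows, gave 188 against 1443, with 1584 and 1567 in wild type (-2.94 ± 0.29 SE, adjusted p = 5.51e-21). In the ada1 deletion strain both lay 2-fold or more below both wild-type arrays. Of 8 tested glycerol genes these 2 were called lower and DAK1, a dihydroxyacetone kinase gene, higher, at 4907 against 2617. GPP1, the other gene of the phosphatase step, had no call (6195 against 7844, -0.34 ± 0.69 SE, adjusted p = 0.902). The DAK1 call was lost in 4 of the 6 alternative fits.

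Some transcripts of hexose transporters and glucose kinases were lower. Of 8 tested hexose transport and sensing genes, HXT7, HXT1 and HXT4 were called lower and none higher, with a median of -0.94 (-0.95 in the difference of differences). HXT7, a high-affinity transporter nearly identical to HXT6, gave 138 against 1575, with 621 and 1031 in wild type. The low-affinity transporter gene HXT1 gave 278 against 1613, with 2569.8 and 2610.4 in wild type. HXT4 gave 59.5 against 279, with 534 and 697 in wild type, and lost its call with signals raised to background. Among 18 glycolysis and fermentation genes, the kinases HXK1 and GLK1 were called lower and none higher. HXK1, a hexokinase gene, gave 259 against 1806 (1037 and 1294 in wild type), and the glucokinase gene GLK1 gave 845 against 3781 (2028 and 2157). The other hexokinase gene, HXK2, gave 9932 against 7271 without a call (0.45 ± 0.76 SE, adjusted p = 0.878). The remaining glycolysis genes had no call, and the list median turned from 0.65 to -0.25 in the difference of differences and 0.02 after quantile normalization. The 128 ribosomal protein genes behaved alike: a median of 0.51 turned to -0.22 and -0.03, and RPS9A alone was called, lower, at 1763 against 4213. Wild-type replicate 1 lay above replicate 2 by medians of 0.84 in glycolysis and 0.73 in ribosomal protein genes.

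**Figure D4:**
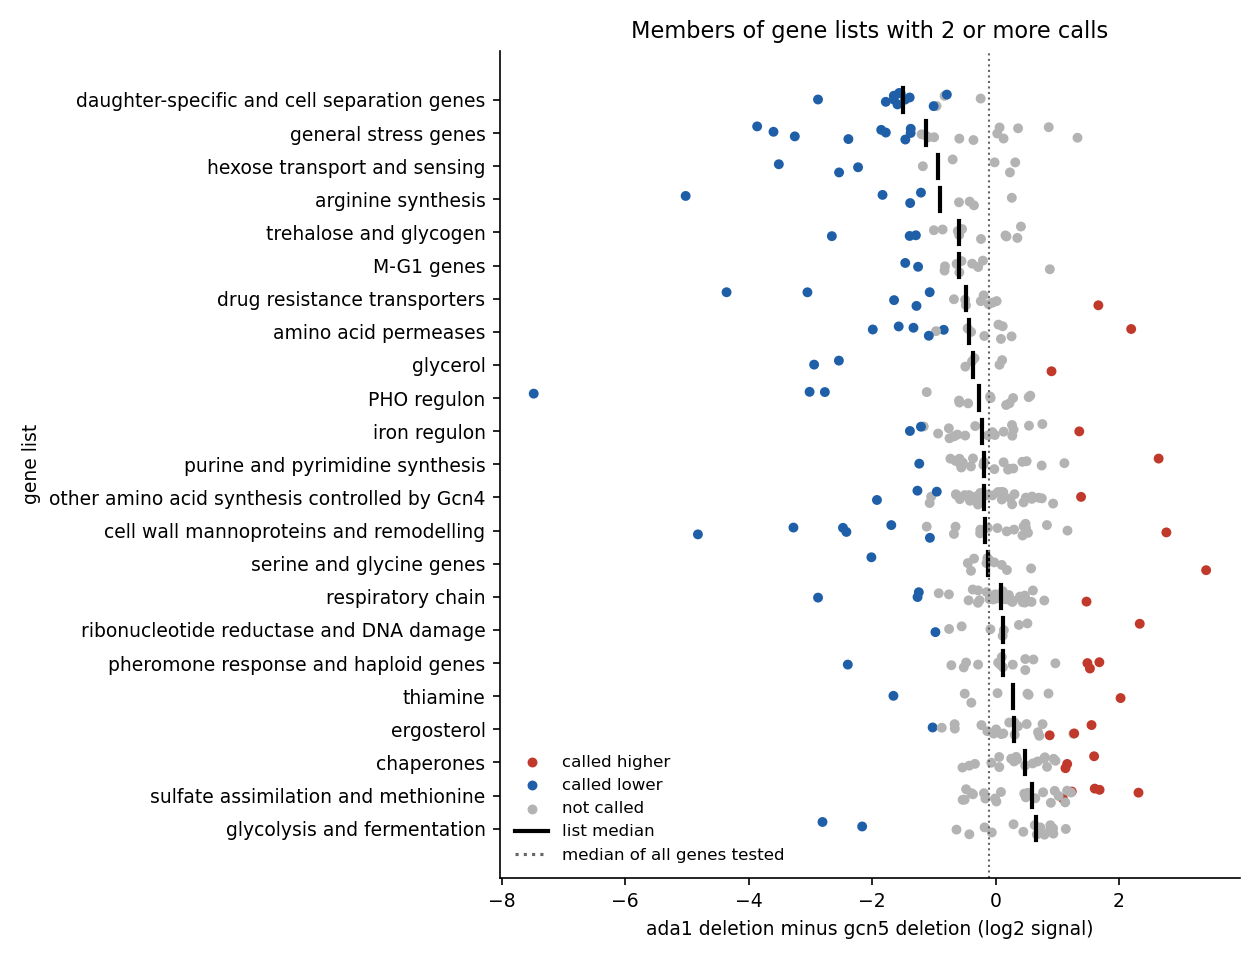
Each point is a tested member of a gene list with 2 or more calls, placed by its ada1 minus gcn5 deletion difference in log2 signal, with list medians as black bars and the median of all tested genes dotted. Daughter-specific, general stress, hexose transport and arginine synthesis genes have the lowest medians, from -1.50 to -0.90, and sulfate assimilation genes have a median of 0.58 with 5 of 26 called higher.

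In the PHO regulon, induced on phosphate starvation by Pho4, 3 of 14 tested genes were called, all lower: PHO84, PHO89 and SPL2, the last below background in both strains. The list median was -0.27, or -0.04 with dim signals at background, and 9 differences were below 0 and 5 above. After quantile normalization 2 genes of the list were called higher and 4 lower. SPL2, a regulator of phosphate uptake, gave 17.6 without ADA1 and 142 without GCN5, with 3173 and 3550.0 in wild type. Both deletion arrays lay below background there, so no fold is given. PHO89, a sodium-phosphate cotransporter gene, gave 36.8 against 249.96, at least 1.51-fold lower, with 1028 and 2285 in wild type, and lost its call with signals raised to background. The acid phosphatase genes PHO5 and PHO11 had no call. PHO5 gave 233 and 246 (difference -0.08 ± 0.31 SE), and PHO11, whose probe set can detect PHO12, gave 191 and 203 (-0.09 ± 0.26 SE). Wild-type signals of these phosphatases were 2595 to 7387, so both strains lay far below wild type at close levels.

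Mating genes had calls in both directions. Of the 4 alpha-specific genes, SAG1 (alpha-agglutinin, a cell adhesion protein of mating) was called higher, at 644 against 338, with 6340.2 and 5328 in wild type. Its difference of 0.93 ± 0.25 SE was under 2-fold and lost its call in 3 alternative fits. The alpha-factor gene MF(ALPHA)1 gave 2602 against 4967, a difference of -0.93 (-1.46 in the difference of differences). It was not called, but was called lower after quantile normalization. The second alpha-factor gene, MF(ALPHA)2, gave 134 and 204 and the receptor gene STE3 gave 423 and 517, without calls. The median of the 4 genes was -0.45 (-0.59 in the difference of differences), with 3 differences below 0 and 1 above. Of 17 pheromone response and haploid genes, 3 were called higher and 1 lower, with a median of 0.12, but 2 of the 3 higher ones, FUS1 and FAR1, lay below background in both strains. RME1, a repressor of meiosis, was the lower one, at 204 against 1074, with 934 and 1058 in wild type. AGA1, the anchor of a-agglutinin, was higher, at 734 against 254, with 1139.6 and 1195 in wild type. FUS1, a cell fusion gene, gave 146 against 45.3, and FAR1, which arrests the cycle, gave 154 against 54.8. For FUS1 and FAR1 both strains were below background and wild type was not (410 to 882), and no fold is given. Raised to background, the values of FUS1, FAR1, SPL2 and PHO3 do not differ, by construction.

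Amino acid pathways differed selectively. Of 8 arginine synthesis genes, 4 were called lower and none higher, with a median of -0.90 (-1.36 in the difference of differences). ARG3 among them was tested only through its gcn5 signal. ARG8, acetylornithine aminotransferase, gave 421 against 1497, with 579 and 586 in wild type. ARG1, argininosuccinate synthetase, gave 2055 against 5360.0, but its wild-type arrays were far apart (2099 and 805), and the call ended after quantile normalization and with signals raised to background. CPA1, a subunit of carbamoyl phosphate synthetase, gave 1172 against 2709 and lost its call with a single variance prior. The list median against the own wild-type array was -0.03 without ADA1 and 1.19 without GCN5, so the gcn5 array was the one that stood away. Of 36 further targets of Gcn4 in amino acid synthesis, 3 were called lower and 1 higher, with a median of -0.18. HIS4, of histidine synthesis, gave 1339 against 5073, with 3920 and 3466 in wild type. ARO3 (2107 against 5067) and LEU9 (583 against 1127), of aromatic and leucine synthesis, were the other lower genes, each with its call lost in at least 1 alternative. LYS9, of lysine synthesis, was higher, at 2685 against 1028, with 1615 and 1741 in wild type. Among 12 serine and glycine genes, CHA1, which breaks down serine and threonine, was lower (776 against 3128, with 2399.7 and 2177 in wild type) where SER3 was higher.

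Sulfate assimilation and methionine genes held the most higher calls of the 40 lists. Of 26 tested, 5 were called higher and none lower, with a median of 0.58 (0.66 in the difference of differences and 0.64 after quantile normalization, where 13 were called higher and 1 lower). SUL2, among the 5, was tested only through its ada1 signal. MET10, a subunit of sulfite reductase, gave 2492 against 774, with 803 and 979 in wild type (log2 difference 1.69 ± 0.27 SE, adjusted p = 1.94e-08). MET3, ATP sulfurylase, gave 1558 against 511, with 398 and 496 in wild type. MET14, adenylylsulfate kinase, gave 2128 against 904, with 957 and 1362 in wild type. MET5, the other sulfite reductase subunit, gave 1697 against 797, with 737 and 945 in wild type. In all 4 genes the ada1 array was above and the gcn5 array near the wild-type arrays. MET3 and MET5 lost their calls with signals raised to background, although none of their own signals lay below it, and MET14 and MET5 with a single variance prior. Among 8 thiamine genes THI13, tested only through its ada1 signal, was higher and PHO3, a thiamine-repressed acid phosphatase gene, lower (44.4 against 140, both below background, with 2269.8 and 2149.7 in wild type). Of 5 vitamin B6 genes SNZ1 was lower, at 333 against 925, with 219 and 231 in wild type, and lost its call with signals raised to background.

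At the plasma membrane, calls ran mainly in the lower direction. Of 14 amino acid and peptide permease genes, 5 were called lower and PTR2 higher, with a median of -0.42. The permease genes DIP5 (514 against 2040, with 2797 and 2669.6 in wild type) and TAT1 (353 against 1047, with 2272 and 2161) were lower, as were BAP2 and GNP1 at 1374 against 3453 and 1669.5 against 3532. TAT1 lay below wild type on both deletion arrays. The GNP1 call was lost in 4 of the 6 alternative fits. Of 14 drug resistance transporter genes, 5 were lower and 1 higher, with a median of -0.49. PDR12, a weak acid exporter gene, gave 388 against 1211, and AQR1 gave 589 against 1431. The higher one, the polyamine transporter gene TPO2, was split by array pair (1221 and 1447 against 385 and 182), and its difference of 1.67 turned to -1.32 in the difference of differences.

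Of 24 cell wall genes, 6 were called lower and 1 higher, with a median of -0.18. Beside CWP1, TIR3 and TIP1, PRY1, a sterol-binding secreted protein gene, gave 360 against 1996, with 518 and 697 in wild type. TIR1, a mannoprotein gene of cold shock and low oxygen, gave 279 against 1492, with 2010.1 and 2389 in wild type. The gcn5 array stood above wild type at PRY1 and below it at TIR1, while the ada1 array was the lowest of the 4 at both. Of 20 iron regulon genes, FTR1, the iron permease, was lower (997 against 2607) and FET5, a multicopper oxidase gene, higher (972 against 379.7), with ISU2 (664 against 1534) also lower. Their median was -0.23, and FET5 and ISU2 each lost their calls in 1 alternative.

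Chaperone genes were higher in 3 of 21 tested and lower in none, with a median of 0.48 (0.38 in the difference of differences). HSP82, the inducible Hsp90, gave 2908 against 1325.5, with 1588 and 1459 in wild type. CPR6, a cochaperone of Hsp90, gave 5699.6 against 2549.7, with 3118 and 3019 in wild type. BTN2, which sorts misfolded proteins, gave 881 against 291, with 395 and 434 in wild type. Each of the 3 calls was lost in at least 1 alternative fit. Of 23 ergosterol genes 3 were higher and 1 lower, with a median of 0.29 that was 0.05 after quantile normalization. ERG9, squalene synthase, gave 3896 against 1325.5, with 2897 and 2664 in wild type. MVD1 (6255 against 2585) and ERG12 (1832 against 997) of the mevalonate branch were also higher, and ERG5 (743 against 1505) was lower, these 3 with calls lost in some alternatives.

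Respiratory chain genes had 1 higher and 3 lower of 36, with a median of 0.09. COX5B, the subunit isoform of cytochrome c oxidase used at low oxygen, gave 127 against 933, with 561 and 747 in wild type, and COX9, another subunit, was higher (3307 against 1191, with 2166 and 2007). QCR6 (566 against 1359.7) and CYT1 (414 against 979.9) were called lower but were under 2-fold in the difference of differences, and both lost their calls with signals raised to background. Of 21 purine and pyrimidine genes, IMD2, an IMP dehydrogenase gene read by a shared probe set, was higher (716 against 115, with 889 and 439 in wild type), and ADE4 was lower (869 against 2047). Of 9 genes of ribonucleotide reductase and DNA damage, RNR1 was lower (854 against 1678) beside the higher HUG1. One gene each was called among histones (HHO1, the linker histone, 703 against 1570.1), ribosome biogenesis (UTP6, 586 against 1130.1) and COS genes near telomeres (COS8, higher, 1785 against 810.3). UTP6 gave 613 and 1058 in wild-type replicates 1 and 2, and its difference of -0.95 was -0.16 in the difference of differences. The ribosome biogenesis median went from -0.35 to -0.02 in the same way. Of these single calls, IMD2 and UTP6 were lost with signals raised to background, UTP6 also after quantile normalization, and ADE4, RNR1, HHO1, UTP6 and COS8 with a single variance prior. RPS9A was lost there and with arrays scaled to equal medians, and RNR1 also with equal medians and without the filter. The 6 tested COS genes all had differences above 0, with a median of 0.64, and 4 were called higher after quantile normalization. COS2, COS4 and COS7 were read by shared probe sets, so the 6 values may not be separate. The lists of arginine and proline breakdown, nitrogen catabolite repressed genes, phospholipid synthesis, peroxisome and fatty acid oxidation, mitochondrial ribosomal proteins and the proteasome had 0 calls in limma, with medians of 0.14, -0.20, -0.01, 0.18, -0.46 and -0.19. In the difference of differences these medians were 0.62, -0.15, -0.04, 0.43, -0.13 and 0.01. At an unadjusted p under 0.05 these lists held 0, 4, 3, 1, 15 and 3 genes in the same order, and after quantile normalization 0, 1, 3, 2, 3 and 0 calls.

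The genes BDF1 and BDF2, picked after their values were seen, encode bromodomain proteins that bind acetylated histones. BDF2 gave 236 without ADA1 and 1880 without GCN5, with 658 and 993 in wild type (log2 difference -2.99 ± 0.33 SE, adjusted p = 7.88e-17, limma). BDF1 gave 612 against 2274, with 1309 and 1377 in wild type (-1.89 ± 0.26 SE, adjusted p = 2.04e-11). In both genes the ada1 array was 2-fold or more below both wild-type arrays and the gcn5 array was the highest of the 4. Transcription factor genes among the lower genes, also picked after their values were seen, included MIG2, a repressor in glucose signalling (107 against 670.2, with 413 and 430.3 in wild type), PHD1 of filamentous growth (272 against 1420.5, with 860 and 1067) and MCM1, a regulator of mating and mitotic genes (228 against 677, with 478 and 687).

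By position, 9 of 3212 pairs of adjacent tested genes (order from RefSeq R64) had both genes called and 2-fold or more apart both ways, 8 of them in the same direction. Single genes met that rule in 187 of 4541 (4.12 percent), and whether the pairs exceed what this share gives was not tested. Among the 9 pairs, named after their values were seen, were YOR302W, the upstream reading frame in the leader of CPA1, with CPA1 itself, VAB2 with YEA4, and SPL2 with ARO9. TIP1, higher, lay beside BAP2 and TAT1, both lower.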

How the data were processed

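Total RNA (200 ng per labelling, per the labels' protocols) was labelled with biotin for Affymetrix arrays of 1 colour. The deposited values are linear MAS5 signals, an intensity for each probe set, 1 column per array, per the submitters' processing notes. The MAS5 version and scaling target were not given in the sources used here. Of 5716 probe sets, 5498 had 1 gene symbol, 0 several and 218 none, and 12 symbols were updated through the RefSeq R64 table. The brightest probe set stood for each of 47 genes with several. Background was taken as the 20th percentile of mean log2 signal (166), and 4541 genes and unnamed probe sets at or above it were tested. Where 1 of the deletion arrays lay below background, the fold sets the brighter array against that level and is a lower bound.

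Differences of log2 signal were fitted with limma 3.58.1 in R 4.3.3 (3 group means, 4 arrays, 1 residual degree of freedom, eBayes with trend) and adjusted over all genes tested. The fit was tested on simulated data. Whether both wild-type samples are independent cultures is not stated in the labels. The p-values therefore reflect the spread between these arrays alone, which may be technical. The number of arrays limits the precision. The difference of differences left no residual degrees of freedom and has no test. Named genes are the deleted genes and their neighbours, the 15 furthest in each direction by the smaller of both differences, and up to 5 members of each list. HXK2, GPP1, SSE2 and ALD2 were added after their values were seen. The 40 lists (902 genes) and the comparison were chosen with earlier results of these data known. No sequences are printed. Alternatives were quantile normalization, scaling to a common median, no filter, signals raised to background, a single variance prior, the mean of a gene's probe sets and the wild-type arrays exchanged.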

Additional observations from a re-analysis of the deposited data

Results flagged for a closer look

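The direct test called 284 genes, of which 97 were not 2-fold or more apart both ways, 85 of them under 2-fold in the difference of differences and 6 with another sign there. In 7 of the 187 called genes that were 2-fold or more apart both ways, the deletion arrays lay on opposite sides of wild type. One lay 2-fold or more above both wild-type arrays and the other 2-fold or more below both, and the difference was tested by the same fit. The gcn5 array was the higher one for CLB1 (ada1 minus gcn5 -4.24 on the log2 scale), HSP12 (-3.86), PCL5 (-3.79), YGR035C (-3.76), TIR3 (-3.27) and TSL1 (-2.65). The ada1 signals of CLB1, HSP12 and YGR035C lay below background, so their differences are the measured values only, and the bounds are at least 11.9-fold, 11.0-fold and 6.90-fold. The ada1 array was the higher one for TIP1 (2.77). Adjusted p-values of these 7 genes were at most 4.73e-06 (limma). No group held enough arrays to look for an array far from the others.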

How the results depend on the processing

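No paired test was possible, because with 1 array per deletion strain the difference of differences left no residual degrees of freedom. The deletion strains also carry no replicate numbers in the labels, so the pairing rests on the rule of the comparison. Without either wild-type array no residual degrees of freedom remain, so calls could not be tested, and the direct differences are the same by construction. The 91 higher calls became 289 after quantile normalization, 303 after scaling to a common median, 52 with a single variance prior and 40 with signals raised to background, where the 193 lower calls became 95. Genes 2-fold or more higher numbered 104 as deposited, 205 after scaling to a common median and 183 without the filter, and those 2-fold or more lower 223 as deposited and 391 without the filter. Leaving out either wild-type array, which moves these counts only through the filter, gave 104 to 105 higher and 215 to 220 lower. The 67 higher genes called and 2-fold both ways became 102 after quantile normalization and 32 with raised signals, and the 120 lower genes 74 with raised signals. Calls among list genes went from 27 higher to 60 (quantile), 46 (median scaling) and 15 (raised signals), and from 74 lower to 49 (raised signals). The correlation between deletion effects went from 0.46 to 0.13 with the wild-type arrays exchanged. TPO2 reversed, to -1.32 in the difference of differences and -1.07 with all its probe sets averaged. Raising signals also took the prior degrees of freedom from infinite to 8.44. The causes were not tested.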
